A study of Mus musculus with 6 samples.

Results

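The Bcl2 family of apoptosis regulators is described here through 10 genes, chosen by symbol from the 38561 genes of a count table: Bcl2, Bcl2l1, Mcl1, Bax, Bak1, Bcl2l11, Bmf, Bik, Bbc3 and Pmaip1. All 10 were found, and 9 held enough counts to be tested. The table comes from RNA sequencing of mouse embryonic stem cells (ESCs) at passages 13 to 17, whose strain was 129X1/SvJ x 129S1/Sv. They were grown without feeder cells on gelatin, with 20% serum replacement and 1000 U/ml of leukemia inhibitory factor (LIF). The cultures were labelled as undifferentiated, with no genetic change or added drug named, and were split by flow cytometry on 2 surface proteins, the adhesion molecule PECAM1 and the growth factor receptor PDGFRa. The 3 fractions were PECAM1-only (PECAM1plusPDGFRamin), double-positive (PECAM1plusPDGFRaplus) and PDGFRa-only (PECAM1minPDGFRaplus), with 2 libraries each, and the series title presents PDGFRa-positive cells as a culture counterpart of primitive endoderm precursors. RNA of 100000 sorted events was amplified for each library. Library labels end in Exp1 or Exp2 in each fraction, called replicates 1 and 2 here. Whether such a number marks a culture or sort shared across fractions is not stated. The labels do not say whether the libraries of a fraction came from separate cultures. Each p thus measures the spread between these libraries, which may be technical.

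Proteins of the Bcl2 family control the release of cytochrome c from mitochondria. The pro-survival proteins BCL2, BCL-XL (gene Bcl2l1) and MCL1 hold the effectors BAX and BAK (gene Bak1) in check, and an active effector opens the outer mitochondrial membrane. The BH3-only proteins, among them BIM (Bcl2l11), BMF, BIK, PUMA (Bbc3) and NOXA (Pmaip1), bind the pro-survival proteins through a short helix, the BH3 domain, and free or trigger the effectors. Pluripotent cells are known to be quick to undergo mitochondrial apoptosis, and p53 is a known activator of Bax, Bbc3 and Pmaip1.

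The BH3 helix is the element that the whole family shares, so the bases that encode its core are shown for 9 members, all but Pmaip1. They were read from GENCODE M21 transcripts (mouse build GRCm38), 5′ to 3′, after a search of each translated coding sequence for a leucine, any 3 residues, a glycine or alanine, and an aspartate. Each gene held 1 such window of 27 bases. Capitals mark the codons of the leucine and of the last pair of residues.
Bcl2: ctgaccCTCcgccgggctGGGGATgac
Bcl2l1: caagcgCTGagagaggcaGGCGATgag
Mcl1: gagaccCTGcggcgcgtgGGCGACggc
Bax: gagtgtCTCcggcgaattGGAGATgaa
Bak1: cggcagCTTgctctcatcGGAGATgat
Bcl2l11: caggagCTGcggcggatcGGAGACgag
Bmf: agaaagCTTcagtgtattGCAGACcag
Bik: ttgaggCTGgcctgcatcGGCGATgag
Bbc3: gcccagCTGcggcggatgGCGGACgac
The window of Bcl2l11 matched that of Bbc3 at 19 of 27 bases, the closest pair, and those of Bcl2l1 and Bmf matched at 9, the most distant pair. Bmf and Bbc3 carry an alanine codon (GCA or GCG) where the other 7 carry a glycine codon.

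Across the libraries, the total was 4809661 to 7273669 counts. The PDGFRa-only replicates differed more than the others: a chi-square of their counts over genes, divided by its degrees of freedom, was 28.4, against 6.08 for PECAM1-only and 5.81 for double-positive, and the fit shares 1 estimate of the spread over all fractions. The genes of both sort markers followed the gates. Pecam1 was at 143 to 166 CPM (counts scaled to library size) in PECAM1-only, 44.9 to 53.8 in double-positive and 1.51 to 1.57 in PDGFRa-only libraries, and Pdgfra at 1.88 to 2.04, 518 to 552 and 509 to 605 CPM. The summed level of 6 primitive endoderm markers (Gata4, Gata6, Sox17, Sox7, Dab2 and Cubn) was 18.6 to 21.2 CPM in PECAM1-only, 6724 to 7329 in double-positive and 9111 to 10186 in PDGFRa-only libraries. For 6 pluripotency markers (Pou5f1, Nanog, Sox2, Zfp42, Esrrb and Tdgf1) the sums were 1357 to 1416, 408 to 478 and 108 to 153 CPM, in the same order. These markers did not fall alike. Pou5f1 had a mean of 76.7 CPM in PDGFRa-only cells, the largest part of their sum, against 138 in PECAM1-only cells. Nanog, Sox2 and Tdgf1 had PDGFRa-only means of 0.451, 1.353 and 2.702 CPM, against 198.7, 96.95 and 493.9 in PECAM1-only cells. Zfp42 and Esrrb lay between these in the share that remained. The 6 fibroblast markers summed to 2.47 to 7.55 CPM over all libraries, with Thy1 and Postn at 0 in the PDGFRa-only fraction. Of 6 blood and endothelial markers, Ptprc, Emcn and Erg had 0 counts in every library, and Tie1 had 0 in both single-positive fractions. Their sum, with Cdh5 and Gata1, was 0.784 to 0.873 CPM in PECAM1-only, 44.9 to 64.2 in double-positive and 61.0 to 117 in PDGFRa-only libraries. Cdh5 alone made up nearly all of that sum in double-positive and PDGFRa-only cells, at means of 54.3 and 88.9 CPM. Gata1 was highest in PECAM1-only cells (0.750 CPM), with 0.0787 in double-positive and 0 in PDGFRa-only cells. The part of other cell types in the results below was not tested, and in sorted bulk samples fewer cells that use a gene and less RNA per cell cannot be told apart.

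Comparing PDGFRa-only with PECAM1-only cells, 8 of the 9 tested members differed: 6 were lower in PDGFRa-only cells (Bmf, Bcl2l11, Pmaip1, Bax, Bbc3 and Mcl1) and 2 were higher (Bcl2l1 and Bak1). The falls included the 4 tested BH3-only members, by 1.93-fold for Bbc3 to 31.3-fold for Bmf, while each of the other roles, pro-survival and effector, had 1 member up and 1 down. Differences were tested with edgeR's quasi-likelihood test and called at an adjusted p below 0.05, with p adjusted over all 13909 tested genes. Of these genes 59% were called in this comparison (30.1% higher and 28.8% lower), against which the members' count is to be read. The libraries of the 2 fractions did not overlap for 8 of the 9 members and for 77.8% of all tested genes. The members' median log2 fold change was -0.95, against 0.01 over all tested genes, and the median size regardless of sign was 1.60 against 0.80. The log2 fold changes below carry the standard error (SE) that the test statistic implies, and CPM values are scaled by library size and TMM factors.

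**Figure D1:**
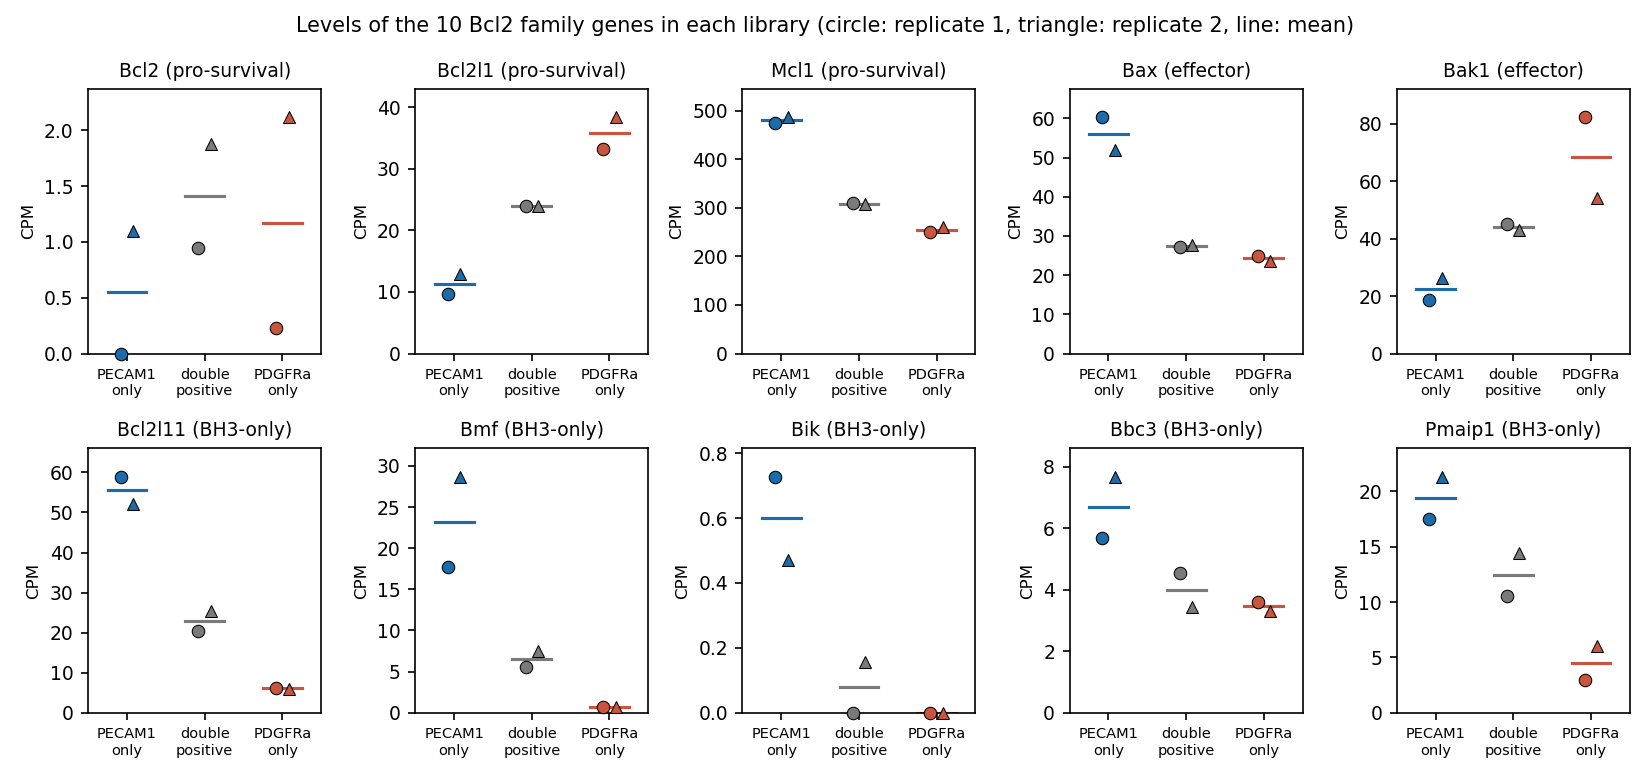
Normalised level (CPM, linear axis from 0) of each gene in the PECAM1-only, double-positive and PDGFRa-only fractions; each point is 1 library (circle replicate 1, triangle replicate 2) and each line the mean of 2. Bmf goes from 23.2 through 6.51 to 0.714 CPM and Bak1 the other way, from 22.4 through 44.0 to 68.2 CPM.

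Among the pro-survival genes, Mcl1, which encodes a short-lived protein that is turned over by the proteasome, was by far the most abundant per length. It is located on chromosome 3 (95658788 to 95663176, GRCm38). Its level was 475 and 487 CPM in the PECAM1-only libraries, 311 and 307 in the double-positive and 249 and 261 in the PDGFRa-only ones. The fractions did not overlap and the replicates lay close together. Mcl1 was lower in PDGFRa-only than in PECAM1-only cells (log2 fold change -0.92, SE 0.15, adjusted p = 2.41e-05, edgeR) and lower in double-positive than in PECAM1-only cells (-0.64, SE 0.15, adjusted p = 0.00187). The step from double-positive to PDGFRa-only cells (-0.28, SE 0.15) did not pass (adjusted p = 0.218).

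Bcl2l1 (chromosome 2, 152780668 to 152831728), whose main product BCL-XL protects cells from BAX and BAK, ran in the opposite direction. It had 9.61 and 12.9 CPM in PECAM1-only, 23.9 and 23.9 in double-positive and 33.2 and 38.4 in PDGFRa-only libraries. No library of 1 fraction reached the range of another. The log2 fold change was 1.68 (SE 0.22, adjusted p = 1.59e-06, edgeR) for PDGFRa-only against PECAM1-only and 1.09 (SE 0.23, adjusted p = 0.000592) for double-positive against PECAM1-only. Between PDGFRa-only and double-positive cells it was 0.59 (SE 0.21, adjusted p = 0.0579), just outside the threshold, and inside it with DESeq2's size factors (adjusted p = 0.0436), with a replicate block (0.0426) and without PDGFRa-only replicate 1 (0.0304). The counts do not separate the isoforms of Bcl2l1, of which the short one promotes death.

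Bcl2 itself (chromosome 1, 106538178 to 106714274), the founding member of the family, was barely detected, with 40 counts over the 6 libraries. Its counts were 0 and 7 in PECAM1-only, 6 and 12 in double-positive and 1 and 14 in PDGFRa-only libraries. Bcl2 shares 558 exon bases with D630008O14Rik on the opposite strand, a gene with 0 counts in every library. Whether the counting used strand is not given in the sources used here, and the effect of this overlap was not tested. The fractions overlapped, and no comparison passed (adjusted p of 0.265, 0.258 and 0.947). The pooled levels were 0.528 CPM (95% exact Poisson interval 0.212 to 1.09), 1.41 (0.837 to 2.23) and 1.36 (0.758 to 2.23), where the intervals cover counting error only. One library decided the sign between the single-positive fractions: the log2 fold change of 1.27 became -1.17 without PDGFRa-only replicate 2 and 6.01 without PECAM1-only replicate 2 (adjusted p = 0.0241). The latter leaves only a library with 0 counts in that fraction, as it does for double-positive against PECAM1-only (6.14, adjusted p = 0.0328).

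Per kilobase of merged exons, Mcl1 made up 98.3% (SD 0.373, n = 2) of the summed Bcl2, Bcl2l1 and Mcl1 level in PECAM1-only cells, 94.4% (SD 0.118) in double-positive and 90.4% (SD 0.760) in PDGFRa-only cells. The share of Bcl2l1 was 1.71% (SD 0.314), 5.45% (SD 0.0419) and 9.45% (SD 0.589), in the same order. Within a library, the Mcl1 level per length was 66.4 and 50.8 times that of Bcl2l1 in PECAM1-only cells, 17.4 and 17.2 times in double-positive and 10.1 and 9.11 times in PDGFRa-only cells. The order of the fractions held in every library. These shares depend on the length used: with the longest transcript in place of merged exons, Bcl2l1 took 3.01%, 9.32% and 15.7%.

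The effectors moved apart. Bax (chromosome 7, 45461697 to 45466898), which rests in the cytosol and moves to mitochondria when activated, had 60.3 and 51.9 CPM in PECAM1-only, 27.1 and 27.7 in double-positive and 24.9 and 23.7 in PDGFRa-only libraries. It was lower than in PECAM1-only cells in the PDGFRa-only fraction (log2 fold change -1.21, SE 0.19, adjusted p = 1.36e-05, edgeR) and in the double-positive fraction (-1.03, SE 0.19, adjusted p = 0.000139). The PDGFRa-only and double-positive fractions differed by -0.17 (SE 0.20, adjusted p = 0.594). Bax shares 192 exon bases with Gm45808, a gene on the same strand that has no row in the count table.

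Bak1 (chromosome 17, 27019810 to 27029009), whose product sits in the outer mitochondrial membrane, had 18.5 and 26.3 CPM in PECAM1-only, 45.2 and 42.9 in double-positive and 82.2 and 54.2 in PDGFRa-only libraries. The PDGFRa-only replicates were the farthest apart, yet both were above all others. Its log2 fold change was 1.60 (SE 0.22, adjusted p = 2.68e-06, edgeR) for PDGFRa-only and 0.98 (SE 0.22, adjusted p = 0.00143) for double-positive, each against PECAM1-only. Between PDGFRa-only and double-positive cells it was 0.62 (SE 0.21, adjusted p = 0.0463), a call that was lost in most alternatives and fell to 0.31 (adjusted p = 0.353) without PDGFRa-only replicate 1. Bak1 shares exon bases with Ggnbp1 on the opposite strand (437 bases), and whether the counting used strand is not given in the sources used here. Ggnbp1 had 57 and 53 counts in PECAM1-only, 21 and 24 in double-positive and 10 and 8 in PDGFRa-only libraries, the reverse of the Bak1 order.

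Per length, Bax was the larger part of the summed Bax and Bak1 level in PECAM1-only cells (79.2%, SD 5.81, n = 2) and the smaller part in PDGFRa-only cells (35.9%, SD 5.93). The ratio of Bax to Bak1 per length was 4.98 and 3.01 in PECAM1-only, 0.915 and 0.987 in double-positive and 0.463 and 0.668 in PDGFRa-only libraries. The summed level of both was 44.9 (SD 1.44), 35.7 (SD 0.390) and 43.8 (SD 8.75) CPM per kilobase, in the same order. With the longest transcript as length, the double-positive share of Bax was 57.4% in place of 48.7%. The summed level also depends on the length. With the longest transcript it was 62.5 and 58.2 in PECAM1-only, 43.5 and 43.1 in double-positive and 57.1 and 44.3 in PDGFRa-only libraries. Both PDGFRa-only sums were then below the PECAM1-only ones.

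**Figure D2:**
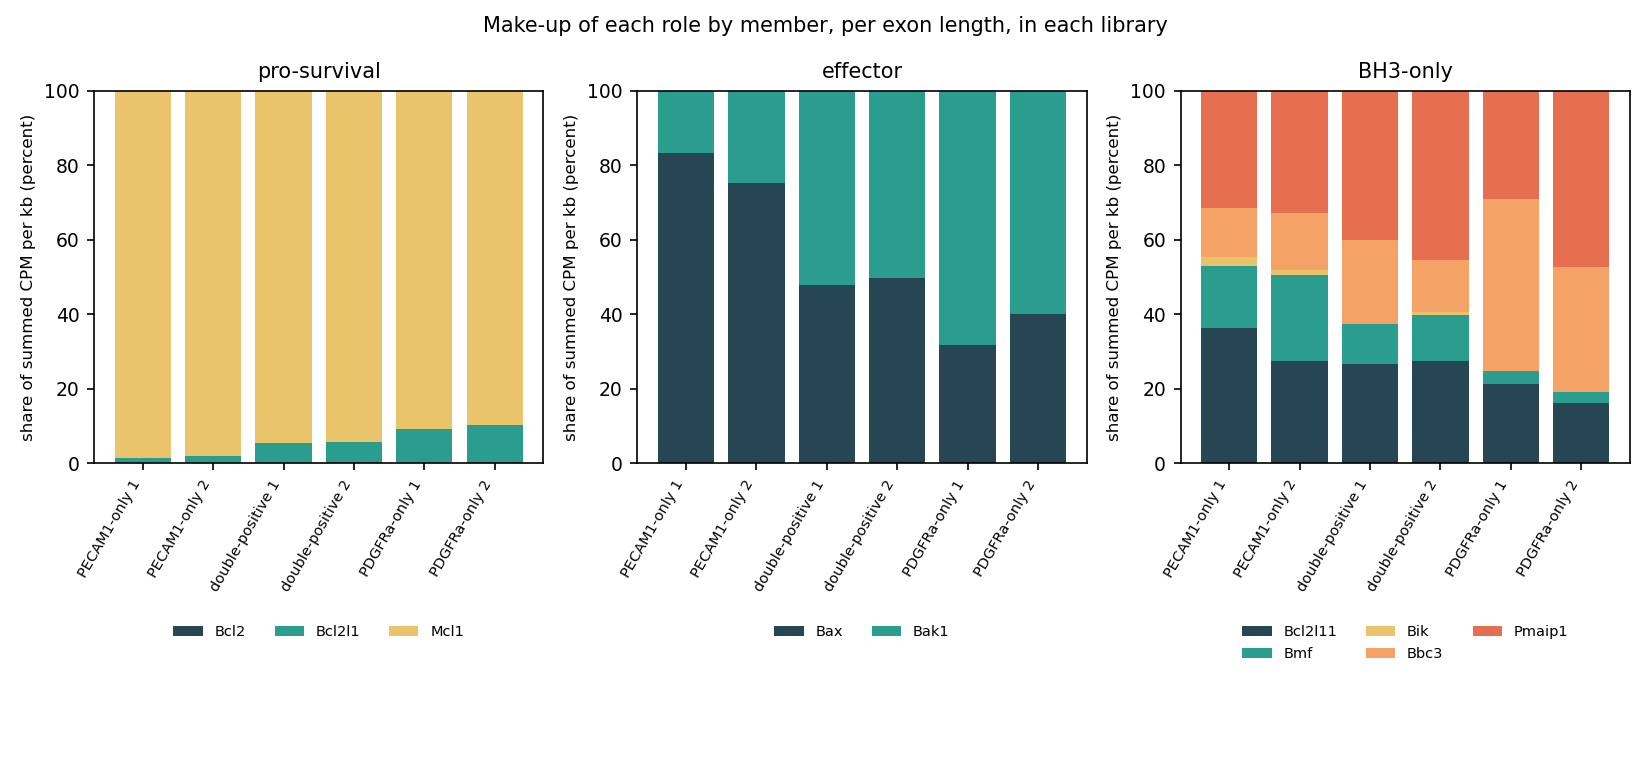
Share (percent) of each gene in the summed CPM per kilobase of its role, in each of the 6 libraries (1 and 2 are replicates); the pro-survival, effector and BH3-only genes are shown from left to right. Bax falls from 79.2% of the effector sum in PECAM1-only to 35.9% in PDGFRa-only cells, and Bmf from 19.9% to 3.29% of the BH3-only sum.

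The 3 widest falls in PDGFRa-only cells were those of the BH3-only members Bmf, Bcl2l11 and Pmaip1, whereas Bbc3 fell less than the effector Bax. Bmf (chromosome 2, 118528757 to 118549687), whose product binds the dynein light chain DYNLL2 and responds to loss of attachment, had 17.8 and 28.7 CPM in PECAM1-only, 5.51 and 7.51 in double-positive and 0.673 and 0.755 in PDGFRa-only libraries. The last values rest on 3 and 5 counts. Each fraction was separate from the next, and all 3 comparisons passed. The log2 fold changes were -4.97 (SE 0.42, adjusted p = 1.87e-09, edgeR) for PDGFRa-only against PECAM1-only, -1.83 (SE 0.29, adjusted p = 2.82e-05) for double-positive against PECAM1-only and -3.14 (SE 0.48, adjusted p = 9.32e-05) for PDGFRa-only against double-positive.

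Bcl2l11 (chromosome 2, 128126038 to 128162547) encodes BIM, which binds all pro-survival members and is a known target of degradation after ERK phosphorylation. Its level was 59.0 and 52.1 CPM in PECAM1-only, 20.5 and 25.5 in double-positive and 6.29 and 6.04 in PDGFRa-only libraries. As for Bmf, no fractions overlapped. The log2 fold changes, in the same order of comparisons, were -3.17 (SE 0.23, adjusted p = 2.69e-10, edgeR), -1.27 (SE 0.20, adjusted p = 2.80e-05) and -1.90 (SE 0.24, adjusted p = 1.05e-05). Bmf, Bcl2l11 and Bak1 were the 3 members called in all 3 pairwise comparisons, which held for 13.7% of all tested genes.

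Pmaip1 (chromosome 18, 66458533 to 66465565) encodes NOXA, which binds MCL1 in particular. It had 17.5 and 21.3 CPM in PECAM1-only, 10.5 and 14.4 in double-positive and 2.92 and 6.04 in PDGFRa-only libraries. It was lower in PDGFRa-only than in PECAM1-only cells (log2 fold change -2.05, SE 0.31, adjusted p = 8.29e-06, edgeR) and than in double-positive cells (-1.41, SE 0.32, adjusted p = 0.00391). The double-positive level did not differ from the PECAM1-only level at the threshold (-0.64, SE 0.27, adjusted p = 0.0679). With other scalings it did, at an adjusted p of 0.0144 to 0.0411. The size of the fall depends on the PDGFRa-only library: against PECAM1-only cells the log2 fold change was -1.66 without replicate 1 and -2.72 without replicate 2, and against double-positive cells -1.04 (adjusted p = 0.0216) and -2.09.

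Bbc3 (chromosome 7, 16308393 to 16318205) encodes PUMA, a strong inducer of death downstream of p53. It had 5.68 and 7.68 CPM in PECAM1-only, 4.56 and 3.44 in double-positive and 3.59 and 3.32 in PDGFRa-only libraries. The double-positive and PDGFRa-only libraries overlapped, and both lay below the PECAM1-only ones. The log2 fold change of PDGFRa-only against PECAM1-only was -0.95 (SE 0.36, adjusted p = 0.0303, edgeR). With DESeq2 the adjusted p was 0.134, and it was 0.101 without PDGFRa-only replicate 2 and 0.215 without PECAM1-only replicate 2, so that call was lost in each. Double-positive against PECAM1-only gave -0.73 (SE 0.35, adjusted p = 0.104), which passed with upper-quartile scaling (0.0436), library size alone (0.0334) and limma on RPKM (0.011), and PDGFRa-only against double-positive gave -0.22 (SE 0.39, adjusted p = 0.751).

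Bik (chromosome 15, 83526862 to 83544634), a BH3-only gene whose product acts at the endoplasmic reticulum, had 5 and 3 counts in PECAM1-only, 0 and 1 in double-positive and 0 and 0 in PDGFRa-only libraries. It was too low to be tested. Its pooled PECAM1-only level was 0.604 CPM (95% exact Poisson interval 0.261 to 1.19). That was 2.23 times the level of 3 counts over the PDGFRa-only fraction, taken as the floor. The lower 95% counting limit of the ratio between these fractions was 1.43. Against the single double-positive count the ratio was 7.70 (counting interval 1.03 to 342).

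Summed per length, the 5 BH3-only members reached 22.0 CPM per kilobase (SD 2.42, n = 2) in PECAM1-only, 10.6 (SD 1.41) in double-positive and 4.17 (SD 0.709) in PDGFRa-only cells, where the PECAM1-only sum was 5.26 times the PDGFRa-only one. The sum depends on which genes are counted: with Bad, a BH3-only gene outside the 10, it was 24.4, 16.1 and 11.7. The PECAM1-only sum was then 2.09 times the PDGFRa-only one. With Bid and Hrk, also BH3-only genes outside the 10, added to Bad, it was 30.7, 19.7 and 14.9, and that ratio was 2.06. The make-up of the 5-gene sum also differed. Bcl2l11 and Bmf accounted for 31.8% (SD 6.27) and 19.9% (SD 4.52) of it in PECAM1-only cells, and for 18.7% (SD 3.69) and 3.29% (SD 0.294) in PDGFRa-only cells. Bbc3, with the smallest fall of the 4 tested BH3-only members, went from 14.2% (SD 1.47) to 39.8% (SD 8.90). Pmaip1 held 32.3% (SD 0.994) in PECAM1-only, 42.8% (SD 3.72) in double-positive and 38.2% (SD 12.9) in PDGFRa-only cells. These shares depend on the length used. With the longest transcript, Bcl2l11 held 40.7% and Pmaip1 26.0% in PECAM1-only cells.

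**Figure D3:**
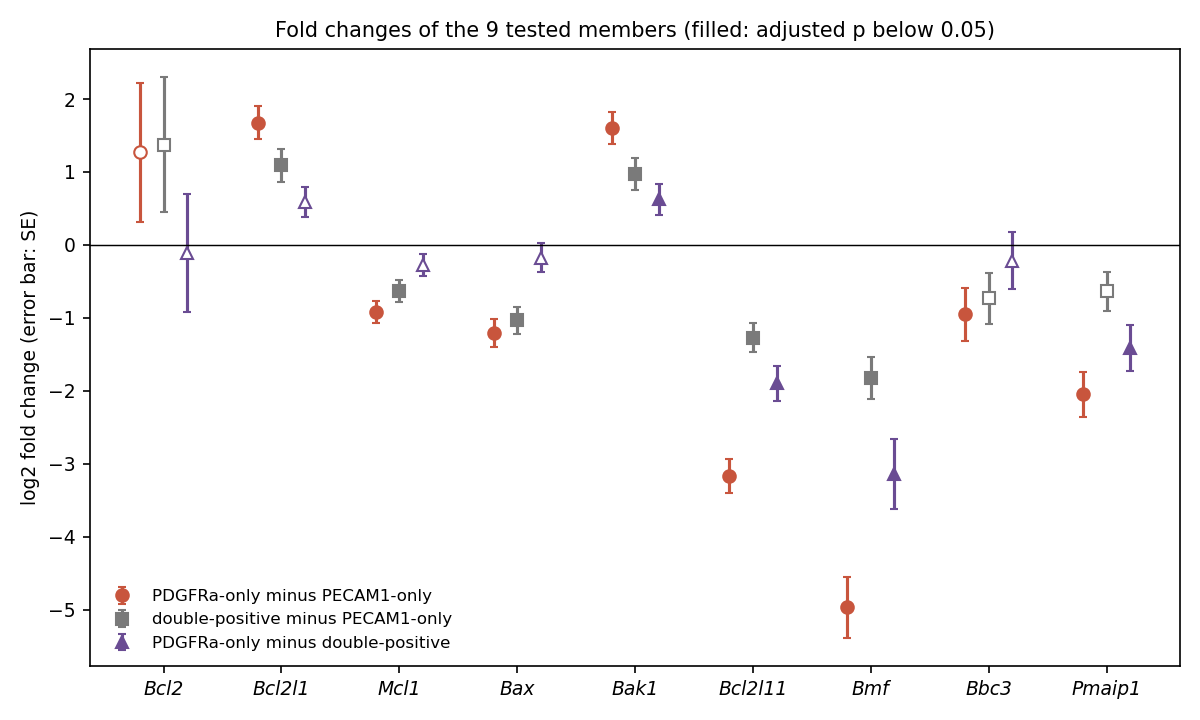
Log2 fold change of the 9 tested genes in the 3 pairwise comparisons, with the SE as error bar; filled symbols have an adjusted p below 0.05 (edgeR). Bcl2l1 and Bak1 lie above 0 in each comparison, and Bmf reaches -4.97 for PDGFRa-only minus PECAM1-only.

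In the comparison of double-positive with PECAM1-only cells, 6 of 9 tested members were called, 2 higher (Bcl2l1 and Bak1) and 4 lower (Bmf, Bcl2l11, Bax and Mcl1), against 38.2% of all tested genes (21.8% higher and 16.4% lower). Between PDGFRa-only and double-positive cells, 4 of 9 were called, with Bak1 higher and Bmf, Bcl2l11 and Pmaip1 lower, against 17.6% of all tested genes (5.94% higher and 11.7% lower). The fractions did not overlap for 8 of 9 members in the first of these comparisons (71.7% of all tested genes) and for 7 of 9 in the second (57.5%). The comparisons share libraries and are not independent. The members' median log2 fold changes were -0.64 and -0.22, against -0.01 and 0.00 over all tested genes.

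The mean level of the double-positive fraction lay between those of the single-positive fractions for 8 of 9 tested members, all but Bcl2, and for 76.1% of all tested genes. As a share of the PECAM1-only level, double-positive cells held 28.0% of Bmf, 41.4% of Bcl2l11, 48.8% of Bax, 59.9% of Bbc3, 64.3% of Mcl1 and 64.3% of Pmaip1. PDGFRa-only cells held 3.08%, 11.1%, 43.4%, 51.8%, 53.0% and 23.1%, in the same order. On this linear scale Bmf, Bcl2l11, Bax, Bbc3 and Mcl1 lost more of their level between the PECAM1-only and double-positive fractions than between the double-positive and PDGFRa-only ones, and Pmaip1 lost more in the latter step. On the log2 scale the latter step was the larger one for Bmf (-1.83 and -3.14) and Bcl2l11 (-1.27 and -1.90) as well. The 2 steps were compared on the log2 scale by the midpoint test, which follows.

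A test of the double-positive level against the midpoint, on the log2 scale, of the single-positive fractions called 0 of 9 members (edgeR), against 8.55% of all tested genes. Of the calls over all genes, 99.7% lay above the midpoint, and the median departure over all tested genes was 0.08. At an unadjusted p below 0.05 there was 1 member, Bax, at -0.43 (SE 0.17, adjusted p = 0.144). DESeq2 called 0 with 1 at an unadjusted p below 0.05, and limma on the deposited RPKM values 0 with 2. The largest departure, Bcl2 at 0.74, had an SE of 0.73.

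Bmf and Bcl2l11, the members with the largest falls, are shown with the 250 bases before their annotated starts, since these 2 genes of chromosome 2 were lower together in all 3 comparisons. The sequences come from RefSeq (GRCm38.p6) and run 5′ to 3′ on the gene's strand, with chr2:118549687-118549936 (minus strand) for Bmf and chr2:128125788-128126037 (plus strand) for Bcl2l11. Capitals mark matches, on either strand, to 6 motifs: the FOXO core GTAAACA, the E-box CACGTG, the GC box GGGCGG, the cAMP response element TGACGTCA, the CCAAT box CCAAT and the GATA motif AGATAA.
Bmf: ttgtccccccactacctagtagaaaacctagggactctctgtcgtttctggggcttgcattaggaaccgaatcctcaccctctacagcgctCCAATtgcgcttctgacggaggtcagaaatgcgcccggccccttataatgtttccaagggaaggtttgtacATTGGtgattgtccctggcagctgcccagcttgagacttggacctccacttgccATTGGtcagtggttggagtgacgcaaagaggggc
Bcl2l11: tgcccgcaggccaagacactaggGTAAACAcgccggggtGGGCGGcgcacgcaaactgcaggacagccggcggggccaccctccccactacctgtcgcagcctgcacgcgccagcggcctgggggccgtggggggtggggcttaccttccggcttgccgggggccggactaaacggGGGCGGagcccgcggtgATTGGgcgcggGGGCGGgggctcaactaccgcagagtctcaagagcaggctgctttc
RefSeq lists 3 starts for Bmf and 2 for Bcl2l11, and the windows belong to the start at the outer end of each gene. The Bmf window held 3 CCAAT matches and none of the other motifs. The Bcl2l11 window held 1 FOXO core, 3 GC boxes and 1 CCAAT match. Among 32851 promoters of the same length, 33.8% held a CCAAT match, 32.7% a GC box and 3.17% a FOXO core. CCAAT was the motif that both windows shared. Of the other starts of Bmf, one window held 1 CCAAT match and one held no match, and that of Bcl2l11 held 2 CCAAT matches and 2 GC boxes. The GC content was 54% for Bmf and 72% for Bcl2l11.

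The genes whose profile over the 6 libraries came closest to the most variable members were searched among 10424 others of at least 5 CPM, by the distance between centred log2 CPM values. For Bmf these were Ralgps1 (distance 0.43 log2 units, Pearson r = 0.996 over 6 libraries) and Txnip (0.48, r = 0.999), which encode an exchange factor for Ral GTPases and a thioredoxin-binding protein. Txnip had 182, 60.9 and 8.46 CPM in PECAM1-only, double-positive and PDGFRa-only cells. For Bcl2l11 they were Rnf213, a ubiquitin ligase gene (0.29, r = 0.996), and Klhl8 (0.30, r = 0.996). For Pmaip1 they were Slc48a1, a heme transporter gene (0.20, r = 0.997), and 2410018M08Rik (0.33, r = 0.990). These values describe the same 6 libraries, in which most variation follows the sort.

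The wider apoptosis machinery was read from 6 lists with 54 genes, of which counts are given for PDGFRa-only against PECAM1-only cells. Of the other genes with Bcl2 homology, 10 of 15 were tested, 2 were higher, 3 lower and 5 were not called (median log2 fold change 0.07). The called share, 5 of 10, was near the 59% of all tested genes. Bad, a BH3-only gene that is controlled by survival kinases, had 6.33 ± 0.308 CPM in PECAM1-only and 19.2 ± 1.10 CPM in PDGFRa-only cells (SD, n = 2), higher by 1.59 on the log2 scale (adjusted p = 4.01e-05, edgeR). Bcl2l2, which encodes the pro-survival protein BCL-W, rose as Bcl2l1 did (1.06, adjusted p = 0.000386). Bid, the link from death receptors to mitochondria, fell (-1.04, adjusted p = 0.000895), as did the effector-like Bok (-3.02, adjusted p = 0.00111), which had 18 and 22 counts against 0 and 4. Without PDGFRa-only replicate 2 only the library with 0 counts is left and the fit of Bok gave -7.21, which is no bound. Bcl2a1a, Bcl2a1b and Bcl2a1d had 0 counts in all libraries, and as near-identical copies they could not be told apart in any case.

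Downstream of mitochondria, 9 of 10 genes of the apoptosome and caspase list were tested, with 5 higher, 2 lower and 2 not called (median 0.62), against 30.1% higher and 28.8% lower among all tested genes. The number higher was 3 with upper-quartile scaling and 2 with library size alone. Casp2, an initiator caspase gene, fell in PDGFRa-only cells (log2 fold change -1.03, adjusted p = 0.000183, edgeR). Casp8, the initiator at death receptors, rose (2.69, adjusted p = 1.00e-07), from 3.78 and 3.76 CPM in PECAM1-only to 20.9 and 23.0 in double-positive and 18.0 and 30.4 in PDGFRa-only libraries. Casp6 rose by 1.68 (adjusted p = 9.73e-05). Cycs, the gene of cytochrome c, was too low to be tested with 47 counts over all libraries; it has processed pseudogenes, and reads shared with near-identical copies may not have been counted.

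All 5 tested genes of the death receptor list (of 7) were higher in PDGFRa-only cells, and 4 in some alternatives (median 1.37), against 30.1% higher among all tested genes. Tnfrsf1a, the main receptor for tumour necrosis factor, had 2.05 ± 0.428 CPM in PECAM1-only and 18.1 ± 4.24 CPM in PDGFRa-only cells (SD, n = 2; log2 fold change 3.12, adjusted p = 4.48e-08, edgeR). The adaptor gene Fadd (1.48), the kinase gene Ripk1 (1.18) and Cflar (1.37), which encodes an inhibitor of caspase 8, also rose. Fas had 9 counts in all and Tnfsf10 had 0. In double-positive cells the same list had 5 genes higher than in PECAM1-only cells (21.8% of all tested genes were), but 1 with DESeq2, with limma on RPKM and without PECAM1-only replicate 2.

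Of 7 transcription factors known to act on Bcl2 family genes, 4 were lower, 1 was higher and 2 were not called (median -0.72), against 28.8% lower and 30.1% higher among all tested genes. Trp53, the gene of p53, had 441 and 344 CPM in PECAM1-only, 194 and 145 in double-positive and 107 and 77.0 in PDGFRa-only libraries (log2 fold change -2.10 for PDGFRa-only against PECAM1-only, adjusted p = 1.03e-08, edgeR). Trp73 had 59 and 55 counts in PECAM1-only and 0 in both PDGFRa-only libraries. Its PECAM1-only level was 31.8 times that of 3 counts over the PDGFRa-only fraction, taken as the floor. The lower 95% counting limit of the ratio between these fractions was 25.4. E2f1 also fell (log2 fold change -1.20, adjusted p = 0.000366), while Atf4 rose (0.96, adjusted p = 2.02e-05).

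Of 8 genes for binding partners and turnover of the family, 1 rose and 3 fell (median 0.04), against 59% called among all tested genes. Usp9x, which encodes a deubiquitinase that stabilises MCL1, fell (log2 fold change -1.42, adjusted p = 3.53e-07, edgeR), and so did Btrc (-0.91, adjusted p = 0.000577) and Fbxw7 (-0.60, adjusted p = 0.00972), genes of ubiquitin ligase subunits. The call of Fbxw7 was lost without PECAM1-only replicate 1 (adjusted p = 0.146). Vdac1, a channel of the outer mitochondrial membrane, rose (0.89, adjusted p = 4.57e-05). Of 7 IAP genes and antagonists, 2 were higher and 1 lower (median 0.11), 3 of 7 against 59% of all tested genes: Xiap (0.65, adjusted p = 0.00493), Birc5 (0.39, adjusted p = 0.0432) and Birc2 (-0.59, adjusted p = 0.0177), while Birc3 was at 0.23 (adjusted p = 0.556). The IAP calls were weak: that of Birc5 was lost with each of the other 3 scalings and without any 1 of 5 libraries, and that of Xiap with library size alone (adjusted p = 0.0913) and without PDGFRa-only replicate 2 (0.0727). Birc2 was lost without PDGFRa-only replicate 1 (0.0738) and PECAM1-only replicate 2 (0.129).

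**Figure D4:**
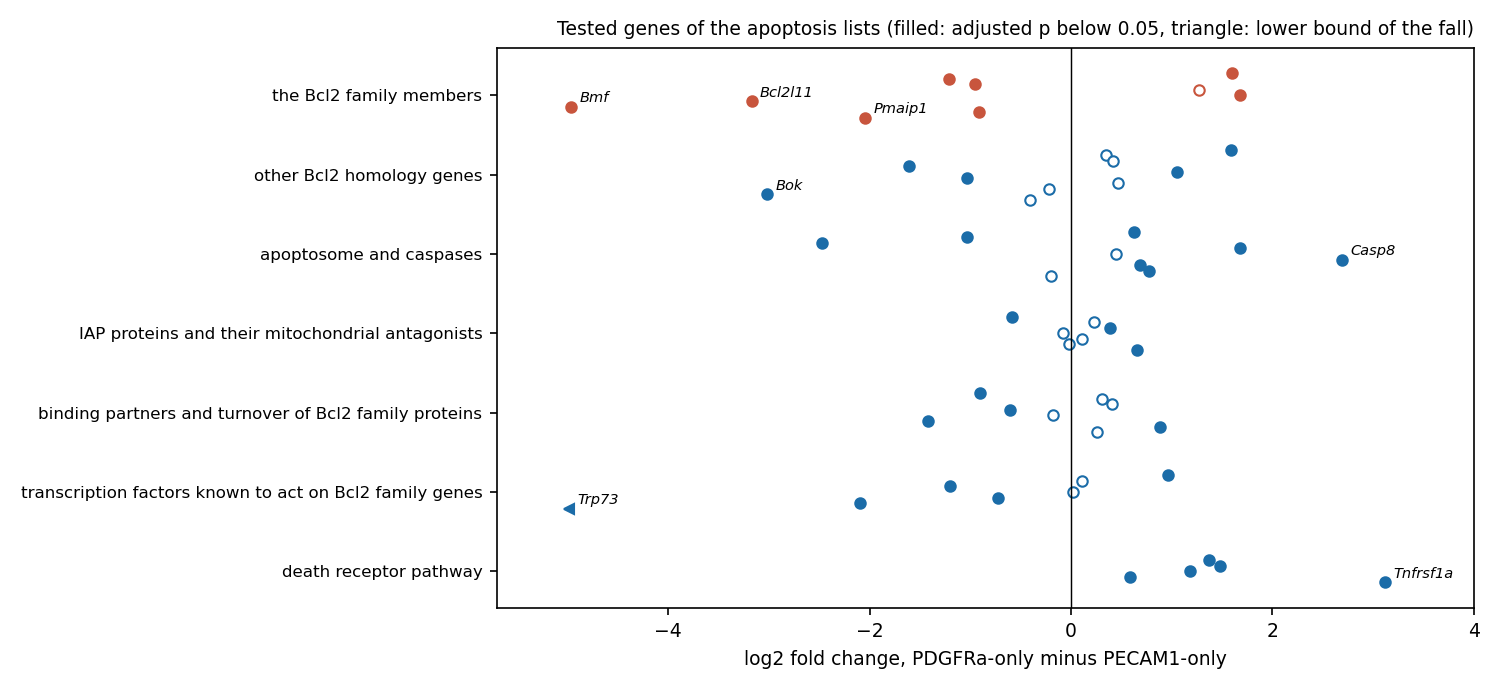
Log2 fold change, PDGFRa-only minus PECAM1-only, of the tested genes of the Bcl2 family and of the 6 wider lists. Filled symbols have an adjusted p below 0.05 (edgeR). The triangle places Trp73 at 31.8-fold lower, with 3 counts taken as its PDGFRa-only level in place of 0. All 5 death receptor genes lie to the right of 0 (higher in PDGFRa-only cells), while Bmf, Bcl2l11 and Pmaip1 are at -4.97, -3.17 and -2.05.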

How the data were processed

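The main values were raw counts per Ensembl gene for 6 libraries, deposited by the authors without normalization. GRCm38, HTSeq 0.5.4p3, TopHat2 2.0.8b, Bowtie2 2.1.0 and cutadapt 1.2.1 are named, without role, in the submitters' processing notes; the annotation release and strand setting are not given in the sources used here. The authors also deposited RPKM values, preprocessed in a way that is not stated, which served only as an alternative.

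Genes were kept by filterByExpr (minimum count 10), scaled by TMM and fitted with edgeR 4.0.16 in R 4.3.3 (glmQLFit, robust, 1 mean per fraction, 3 residual df). Two-sided tests were used, with Benjamini-Hochberg adjustment over 13909 genes. In data simulated for PDGFRa-only against PECAM1-only (13584 genes, with 100 changed at each fold), the fit recovered 72% of 2-fold and 98% of 4-fold changes. In the real comparison 59% of tested genes were called, so the recovered shares may differ there. Exon lengths came from GENCODE M21; 2 list genes, Bcl2a1a and Bcl2a1d, had no entry there. Intervals and floors cover counting error only. The alternatives used DESeq2 1.42.0 and limma 3.58.1, and lengths and figures came from Python 3.11.15.

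All 10 members were named. From each wider list the 4 genes with the smallest p between the single-positive fractions were named, and for the 3 members of widest range (mean of at least 5 CPM) the 2 nearest genes. A gene that this rule would name is not reported here. Fas, Tnfsf10, Cycs and the Bcl2a1 genes were named after their values were seen, as were Hrk, Ggnbp1 and D630008O14Rik. The members, lists and tests were chosen with earlier results of these data known, and the motifs and the sets of printed sequences after seeing the values. Sequences were matched by symbol, and promoter windows were read for 8 of 10 members. Bik had no RefSeq promoter entry. Sequences of chromosome 18, where Pmaip1 lies, were left out, so it has neither a promoter nor a BH3 window here.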

Additional observations from a re-analysis of the deposited data

How the results depend on the processing

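Of 519 values of the members' log2 fold changes under alternatives, 483 kept their direction and side of the threshold, 15 lost and 15 gained a call and 6 changed sign. The 6 were Bcl2 for PDGFRa-only minus PECAM1-only without PDGFRa-only replicate 2 (-1.17), Bcl2 for PDGFRa-only minus double-positive with limma on log2(RPKM + 1) (0.0283), without PDGFRa-only replicate 1 (0.58) and without double-positive replicate 2 (0.45), and, against the midpoint with limma on RPKM, Bcl2l11 (-0.16) and Bmf (-0.29). None of these 6 passed the threshold. Leaving out each library, Bcl2 ranged from -1.17 to 6.01 in the first comparison and from -2.55 to 0.58 in the second. The list gene Birc3 also changed sign with library size alone (-0.0592). The cause was not tested.

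The number of members called stayed at 7 to 8, 6 to 7 and 3 to 4 when each library was left out, in the order PDGFRa-only minus PECAM1-only, double-positive minus PECAM1-only and PDGFRa-only minus double-positive; with limma on RPKM the last was 2, against 4. Genes called there numbered 2450, against 773 with limma on RPKM and 1326 to 2945 when a library was left out. For the midpoint the number was 1189, against 413 with limma on RPKM and 770 to 1656 when a library was left out. Without a filter on low counts Bik was called between the single-positive fractions (adjusted p = 0.0477), which gave 9 members. Bak1 between PDGFRa-only and double-positive cells was lost with upper-quartile scaling (adjusted p = 0.0632), library size alone (0.0797), the stricter filter (0.0595), DESeq2 (0.0727), a fit of these 2 fractions (0.0684), limma on RPKM (0.311) and without any 1 of 5 libraries. Pmaip1 there was lost with limma on RPKM (0.115), and Pmaip1 between double-positive and PECAM1-only cells was gained in a fit of these 2 fractions (0.0241) and without either PDGFRa-only library. Library size alone moved the median of all genes between the single-positive fractions from 0.01 to -0.28, and the share of calls that were higher from 51.1% to 37.8%; for the other pairwise comparisons that share went from 57% to 39.8% and from 33.7% to 21.9%. The members' split of 2 higher and 6 lower was the same with each scaling.

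Over the alternatives, the calls between the single-positive fractions ranged from 2 to 4 higher and 1 to 4 lower for the other Bcl2 homology genes, from 2 to 5 higher for the apoptosome and caspases, from 0 to 2 higher and 0 to 1 lower for the IAP list, and from 1 to 3 higher for binding partners. The Exp1 and Exp2 of the labels recur in all 3 fractions, but the labels do not say that a number marks a shared culture or sort. Deviations of same-numbered libraries correlated with r = -0.0248 (PDGFRa-only and PECAM1-only), 0.111 (PDGFRa-only and double-positive) and 0.156 (PECAM1-only and double-positive). Since not every pair was over 0.1, the numbers were not taken as pairs in the main fit. Whether they are pairs is not known. With a replicate block, 8, 7 and 5 members were called; Pmaip1 between double-positive and PECAM1-only cells (adjusted p = 0.0299) and Bcl2l1 between PDGFRa-only and double-positive cells (0.0426) were gained. The depth limits what can be said of Bcl2 and Bik.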
